A study of Mus musculus with 12 samples.

Results

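The brush border is the carpet of microvilli on the luminal face of absorptive enterocytes, the epithelial cells that take up nutrients, water and ions. A set of 44 genes was followed here, chosen by name for their roles in building microvilli, in digestion and uptake at the apical membrane and in handling absorbed lipids, out of 55376 genes in the count table. The levels of these genes were compared between EPR cKO and EPR fl/fl mice by RNA-Seq of the proximal colon. EPR, listed in the annotation as Smim31, is a long noncoding RNA made in mouse epithelia. All 12 animals were 12 weeks old, carried loxP sites on either side of the EPR promoter and exon 1 on both alleles (EPR fl/fl), and gave 1 library each, 6 per group. The 6 EPR fl/fl controls lacked Cre, whereas the 6 EPR cKO mice also carried the CDX2P-NLS Cre transgene, in which promoter and enhancer sequence of the human CDX2 gene drives Cre in epithelial cells from the last part of the ileum through the cecum to the colon. Effects of the transgene itself and of EPR loss therefore cannot be told apart. The sex of the animals was not given in the sample labels. RNA came from the whole frozen proximal part of the colon and not from isolated crypts, so that each library holds muscle, fat, vessels, nerves and immune cells besides the epithelium. In such bulk tissue, fewer cells of a type and less RNA per cell cannot be told apart.

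Each microvillus is held up by a bundle of parallel actin filaments that villin, espin and plastin 1 pack together, that ezrin and myosin 1a fasten to the overlying membrane, and that EPS8 caps at its tip. Protocadherins at the tips of neighbouring microvilli bind one another and draw the microvilli into an ordered array, with harmonin, ANKS4B and myosin 7b anchoring them inside the cell. Peptidases and alkaline phosphatase stand on this surface. In the colon, which receives little undigested food, the brush border serves mainly water, ion and bile acid uptake and defence, and the genes of dietary fat uptake are known chiefly from the small intestine.

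The libraries held 13093904 to 33211041 counts, and levels are given as CPM, counts scaled to the size of the library. EPR itself was nearly absent from the EPR cKO libraries, with 0 to 10 counts against 297 to 1474 in EPR fl/fl, a log2 fold change of −8.09 (SE 0.47, edgeR quasi-likelihood test, Benjamini-Hochberg adjusted p = 1.62e-06). EPR cKO 1 stood apart by its tissue content. The summed level of 10 smooth muscle genes was 10212 CPM there, against 1236 to 3026 CPM in the other EPR cKO libraries and 3445 to 5869 CPM in EPR fl/fl. An epithelial share score, the mean log2 CPM of 14 general epithelial genes minus that of the smooth muscle genes, was −1.54 in EPR cKO 1 and 0.56 to 1.99 in the other EPR cKO libraries. Its mean was −0.20 ± 0.27 for the controls and 0.87 ± 1.31 for EPR cKO (SD, n = 6, two-sided exact permutation p = 0.0801). Without EPR cKO 1 the difference of 1.07 in the score became 1.55 (exact permutation p = 0.00216, the smallest that these groups allow). That library was singled out by its own extreme score, so this p adds no support to the p over all 12 libraries. The score was used as a covariate in a second fit, and the fold changes with and without it are given side by side. The summed level of 10 goblet cell genes, the markers of the mucus-secreting neighbours of enterocytes, was 13522 to 28636 CPM in EPR fl/fl and 6229 to 8646 CPM in EPR cKO, and 7 of the 10 genes fell at an adjusted p under 0.05. The part of goblet cell content in the values of the brush border genes was not tested.

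The label of the gene set was checked against expression in the tissue. Of the 44 genes, 39 reached at least 1 CPM in at least 4 libraries and were tested among 15952 genes. The other 5, Pdzk1, Cdh16, Fabp1, Apoa1 and Apoa4, were under 1 CPM in every library. Fabp1, Apoa1 and Apoa4 encode a fatty acid binding protein and apolipoproteins of fat-absorbing cells of the small intestine and liver. Of a separate list of 10 small-intestinal genes, 5 (Lct, Apoc3, Defa24, Defa30 and Treh) were under 1 CPM in every library, whereas Slc10a2, for the apical bile acid transporter of the ileum, was at 319 ± 88.5 CPM in EPR fl/fl, Sis, for sucrase-isomaltase, at 31.2 ± 23.6 CPM and Fabp6 at 6.52 ± 5.57 CPM. Cdh16, which encodes cadherin 16 and is known best from kidney, had 0 counts in all EPR fl/fl libraries. The structural genes of the microvillus, by contrast, were present throughout, and the 44 genes together took 0.978 to 1.45% of the counts of a library.

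Levels of different genes were compared per kb of exon, as TMM-scaled CPM divided by the summed exon length. Guca2a, which encodes guanylin, the peptide ligand of guanylate cyclase C that drives fluid secretion, had the highest level of the 44 genes, with 1396 CPM per kb in EPR fl/fl and 1918 CPM per kb in EPR cKO. Fabp2, for intestinal fatty acid binding protein, followed with 515 and 775 CPM per kb, and Emp1, for a small membrane protein of epithelia, with 481 and 734 CPM per kb. Among the genes that bundle or anchor actin, Vil1 (villin) was highest with 229 and 272 CPM per kb, and Espn (espin) was far below it with 7.45 and 11.1 CPM per kb. The protocadherin gene Cdhr5 (231 and 250 CPM per kb) led the adhesion genes and Myo1a (141 and 189 CPM per kb) the myosins. Mep1a, for the peptidase meprin 1 alpha, had 133 and 139 CPM per kb, whereas Dpp4 (7.26 and 5.17 CPM per kb) and Anpep (2.33 and 2.04 CPM per kb), for classic peptidases of the small-intestinal brush border, were low.

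**Figure D1:**
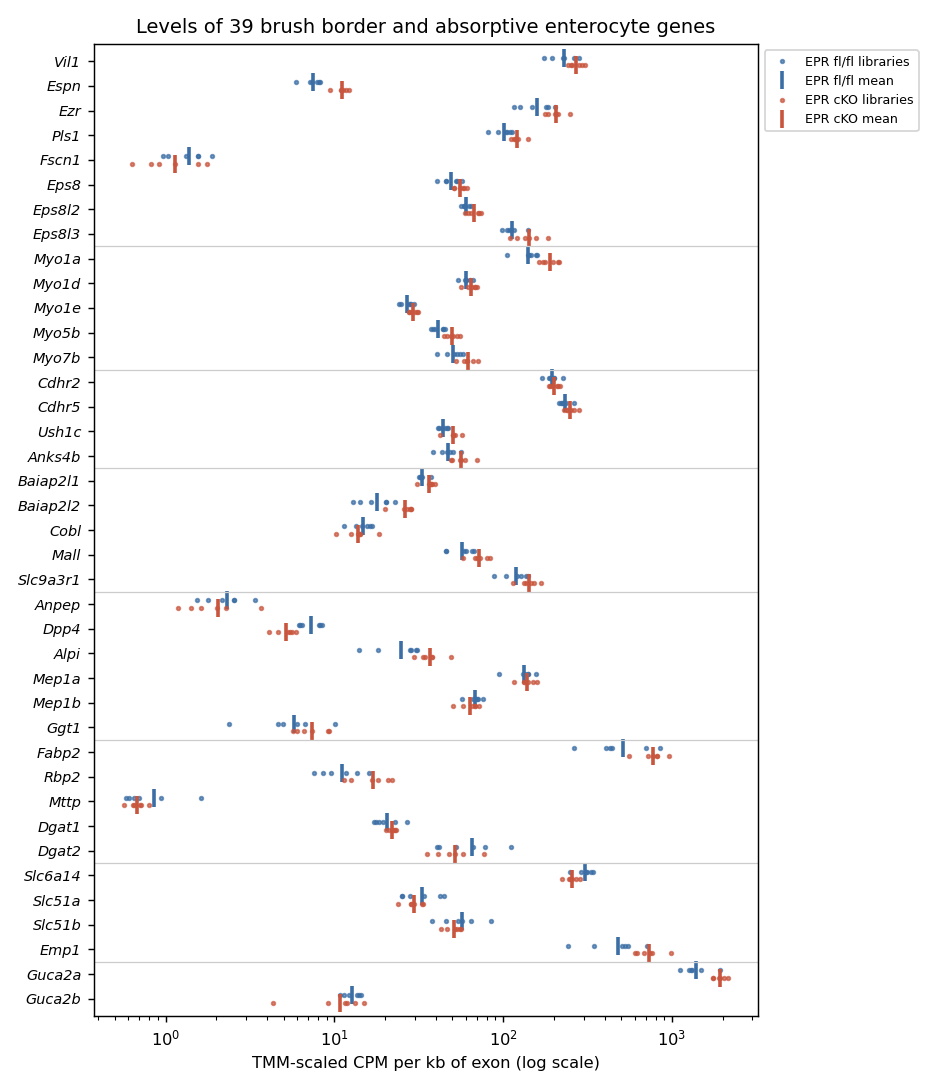
Level of the 39 tested genes in each of 12 libraries, as TMM-scaled CPM per kb of exon on a log axis, with points for libraries and ticks for the means of EPR fl/fl (blue) and EPR cKO (red), and grey lines between groups of genes by role. Guca2a, Fabp2 and Emp1 lay at the top, with 1396, 515 and 481 CPM per kb in EPR fl/fl, and Mttp and Fscn1 at the bottom, with 0.850 and 1.38 CPM per kb.

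Of the 39 tested genes, Espn rose and Dpp4 fell in EPR cKO at an adjusted p under 0.05. That is 1 gene higher, where 0.884% of all tested genes were called higher, and 1 gene lower, where 1.57% were called lower. No brush border gene passed the thresholds of the study (adjusted p under 0.001 and a log2 fold change beyond 1.25 in either direction), which 0.169% of all tested genes passed. At an unadjusted p under 0.05, 17 of the 39 were higher and 2 lower, against 1777 higher and 1136 lower of all 15952 genes. Log2 fold changes ran from −0.49 for Dpp4 to 0.61 for Rbp2, with a median of 0.18 against 0.02 for all tested genes, and 28 of the 39 values were above 0. The summed level of the 44 genes was 9529 to 12558 CPM in EPR fl/fl and 12760 to 15020 CPM in EPR cKO, and these ranges did not overlap. Such a sum was not tested, has no share over all genes beside it, and is weighted to abundant genes. Mean levels went from 1503 to 2294 CPM for Emp1, 829 to 1139 for Guca2a and 497 to 747 for Fabp2. Slc6a14 went from 1048 to 876 CPM, and none of these genes was called. The 14 general epithelial genes of the score had a median log2 fold change of 0.20, with 1 of 14 called higher. Without EPR cKO 1, 7 genes (Alpi, Baiap2l2, Espn, Guca2a, Myo1a, Myo5b and Ush1c) were called higher and Dpp4 lower, but so were 7.44 and 14.4% of all genes, and the median was 0.16.

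In the plot of single libraries, 2 libraries stand out by their brush border genes. EPR fl/fl 3 was the lowest of the 12 libraries in 15 of the 39 genes, among them Vil1, Espn, Ezr, Pls1, Myo1a, Alpi, Fabp2 and Emp1, and had the highest goblet cell sum (28636 CPM). EPR cKO 5 was the highest in 11 of the 39, and had the highest epithelial share score (1.99). Matching counts over all tested genes were not taken, so neither count can be read as particular to the brush border genes. Without EPR fl/fl 3, Espn remained the sole call, with 0 genes lower.

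**Figure D2:**
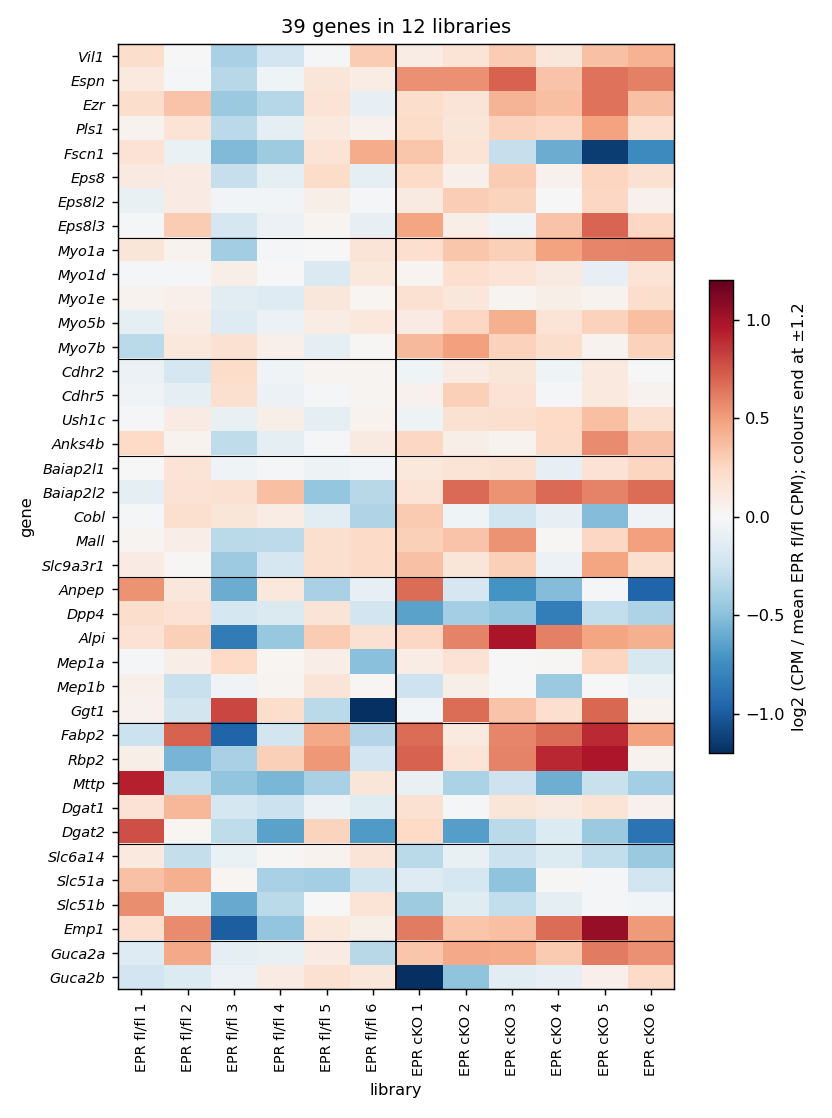
Level of the 39 tested genes (rows, grouped by role) in the 12 libraries (columns), as the log2 ratio of CPM to the mean of EPR fl/fl, with colours ending at ±1.2. Espn is above that mean in all 6 EPR cKO libraries and Dpp4 below it in all 6, EPR fl/fl 3 is low in many rows, and Guca2b is darkest in EPR cKO 1.

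Espn had the lowest adjusted p of the 39 genes. Espin cross-links actin filaments into the tight parallel bundles of microvilli and of the stereocilia of hair cells. Espn (chromosome 4, 152120331 to 152152371, minus strand, GRCm38) had 50.9, 46.4, 37.3, 45.5, 52.1 and 50.02 CPM in EPR fl/fl 1 to 6, and 68.9, 68.8, 77.0, 59.8, 74.0 and 71.4 CPM in EPR cKO 1 to 6. All 6 EPR cKO libraries lay above all 6 controls, as for 1.00% of all tested genes, and EPR cKO 1 lay within the range of its group. The mean went from 47.1 ± 5.41 to 70.0 ± 5.89 CPM, a 1.49-fold rise (log2 fold change 0.57, SE 0.09, adjusted p = 0.00343). With the score as covariate the value was 0.58 (adjusted p = 0.00888). The call held in all 9 other settings of the analysis (adjusted p up to 0.0253) and in each of the 12 fits without 1 library (up to 0.0146). When the score was used and EPR cKO 1 left out, an alternative chosen after seeing the data, the value was 0.63 with an adjusted p of 0.410, and that fit called 0 genes higher and 12 lower in all. The ratio of Espn to Vil1 within a library, which does not depend on the scaling of libraries, averaged 0.0667 ± 0.0070 over the controls and 0.0827 ± 0.0064 over EPR cKO. The groups touched in this ratio, with EPR fl/fl 4 at 0.0750 and EPR cKO 6 at 0.0749.

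Of the other genes for actin bundling and anchoring, 6 of 7 had values above 0, and none passed the test. Vil1, whose product bundles and severs actin, was at 547 to 880 CPM in EPR fl/fl (median 712) and 759 to 954 CPM in EPR cKO (median 842). The groups overlapped, with 3 EPR cKO libraries above every control (log2 fold change 0.25, SE 0.12, adjusted p = 0.276). Ezr, for ezrin, which ties actin to the membrane, had a log2 fold change of 0.36 (adjusted p = 0.195), and Pls1, for the bundling protein plastin 1, a value of 0.27 (adjusted p = 0.150), with 5 EPR cKO libraries above every control. Eps8 and its relatives Eps8l2 and Eps8l3, for proteins that cap and bundle actin, were at 0.18, 0.16 and 0.32. Exons of antisense genes covered 41.1% of the exon length of Eps8l2 and 42.5% of that of Eps8l3, and since the strand setting of the counting is not stated, their reads cannot be told from those of B230206H07Rik and 4933431E20Rik. Fscn1, for fascin, a bundling protein of filopodia that is also made outside the epithelium, was at 2.57 to 5.06 CPM in EPR fl/fl (median 3.83) and 1.68 to 4.68 CPM in EPR cKO (median 2.76). Its value of −0.28 (SE 0.26, adjusted p = 0.581) became 0.08 with the score.

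All 5 myosin genes had values above 0, and none passed the test. Myosins link the actin core to the membrane and carry vesicles along it. Myo1a, for the main brush border myosin, was at 539, 501, 364, 480, 488 and 542 CPM in EPR fl/fl 1 to 6 and at 560, 611, 590, 681, 730 and 734 CPM in EPR cKO 1 to 6. Its groups did not overlap, as for 1.00% of all tested genes with EPR cKO above, and EPR fl/fl 3 was the lowest control by a wide gap. The log2 fold change was 0.42 without a covariate (SE 0.11, adjusted p = 0.0603) and 0.30 with the score (adjusted p = 0.194). It passed 0.05 in the DESeq2 Wald test (0.00851), in limma-voom (0.0491) and without EPR cKO 1 (0.0143). Myo5b, whose product carries recycling vesicles to the apical membrane, was at 0.27 (SE 0.08, adjusted p = 0.0921), and Myo7b, for the myosin of the tip links, at 0.29 (adjusted p = 0.149). Myo1e (0.12) and Myo1d (0.10) lay closest to 0.

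The 4 genes of intermicrovillar adhesion had values from 0.05 to 0.26, and none passed the test. Cdhr5, for 1 of the 2 protocadherins that join microvillus tips, was at 565 to 695 CPM in EPR fl/fl (median 594) and 601 to 742 CPM in EPR cKO (median 646). The groups overlapped, with 1 EPR cKO library above every control (log2 fold change 0.11, SE 0.08, adjusted p = 0.438). Its partner Cdhr2 had 0 EPR cKO libraries above every control (0.05, SE 0.08, adjusted p = 0.775). Ush1c, for harmonin, and Anks4b, for the scaffold that binds it, were at 0.19 (adjusted p = 0.188) and 0.26 (adjusted p = 0.219). Ush1c passed 0.05 without EPR cKO 1 (0.0258), and went to 0.08 with the score.

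Among the 5 tested genes that shape the membrane or hold apical scaffolds, Baiap2l2 had the highest value. Its product, pinkbar, is a membrane-bending protein of intestinal epithelium. Baiap2l2 was at 40.3, 49.0, 49.2, 55.9, 31.4 and 34.5 CPM in EPR fl/fl 1 to 6 and at 48.7, 69.7, 62.9, 69.4, 65.4 and 68.9 CPM in EPR cKO 1 to 6. Every EPR cKO library except EPR cKO 1 lay above the controls. The fitted log2 fold change of 0.56 (SE 0.14) had an adjusted p of 0.0565, with 0.38 (adjusted p = 0.188) under the score and 0.61 (adjusted p = 0.00664) without EPR cKO 1. Slc9a3r1, for the scaffold NHERF1 that holds ezrin and ion transporters, was at 171 to 270 CPM in EPR fl/fl (median 240) and 219 to 320 CPM in EPR cKO (median 272). Its groups overlapped (0.24, SE 0.12, adjusted p = 0.316). Mall, for a protein of membrane rafts, was at 0.33 (adjusted p = 0.166), Baiap2l1 at 0.14, and Cobl, for an actin nucleator, at −0.09 without and 0.04 with the score.

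Of the 6 tested genes for surface enzymes, 3 had values above and 3 below 0. Dpp4, for dipeptidyl peptidase 4, which clips dipeptides from peptides at the cell surface and is also carried by T cells as CD26, fell. Dpp4 (chromosome 2, minus strand) had 44.2, 43.1, 32.998, 33.8, 42.7 and 32.7 CPM in EPR fl/fl 1 to 6, and 24.6, 28.8, 27.8, 21.5, 31.1 and 29.5 CPM in EPR cKO 1 to 6. All 6 EPR cKO libraries lay below all 6 controls, as for 1.47% of all tested genes, although EPR cKO 5 (31.1 CPM) lay close to EPR fl/fl 6 (32.7 CPM). The mean went from 38.2 ± 5.59 to 27.2 ± 3.57 CPM, or 71.3% of the control level in the fit (log2 fold change −0.49, SE 0.11, adjusted p = 0.0403). With the score the value was −0.55 (adjusted p = 0.0493), and without EPR cKO 1 it was −0.48 (adjusted p = 0.0154). With the score and without EPR cKO 1 it was −0.56 and no longer called (adjusted p = 0.598). The call is close to the threshold, since it held in 6 of 9 other settings of the analysis and in 3 of the 12 fits without 1 library, its highest adjusted p being 0.101, without EPR fl/fl 5. The summed level of 6 immune cell genes was 85.8 to 193 CPM in EPR fl/fl and 81.6 to 118 CPM in EPR cKO, and its part in the Dpp4 value was not tested.

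Mep1a, the highest of the enzyme genes per kb, differed little between the groups. It was at 278 to 465 CPM in EPR fl/fl (median 408) and 344 to 472 CPM in EPR cKO (median 407), with nearly equal medians (log2 fold change 0.06, SE 0.11, adjusted p = 0.774). The ratio of Dpp4 to Mep1a within a library averaged 0.0989 ± 0.0179 over the controls and 0.0667 ± 0.0110 over EPR cKO. The groups overlapped in this ratio, with EPR fl/fl 3 at 0.0710 and EPR cKO 6 at 0.0859. Alpi, for intestinal alkaline phosphatase, which removes phosphate from bacterial lipopolysaccharide, was at 32.5 to 71.8 CPM in EPR fl/fl (median 65.8) and 69.3 to 115 CPM in EPR cKO (median 84.5). Its EPR cKO libraries lay above the controls except EPR cKO 1, at 69.3 CPM, and EPR fl/fl 3 and 4 were the low controls. The log2 fold change of 0.58 (SE 0.19, adjusted p = 0.137) did not pass the test, and without EPR cKO 1 it was 0.61 (adjusted p = 0.0410). Alpi shared 2.40% of its 50-base stretches with its neighbour Akp3, which was under 1 CPM in every library. Mep1b, for the beta chain of meprin, was at −0.10 (adjusted p = 0.572). Ggt1, for gamma-glutamyl transferase, was at 0.34 (adjusted p = 0.508). Anpep, for aminopeptidase N, was at 5.83 to 12.8 CPM in EPR fl/fl and 4.53 to 14.0 CPM in EPR cKO, with the highest level in EPR cKO 1 (log2 fold change −0.19, SE 0.27, adjusted p = 0.721).

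**Figure D3:**
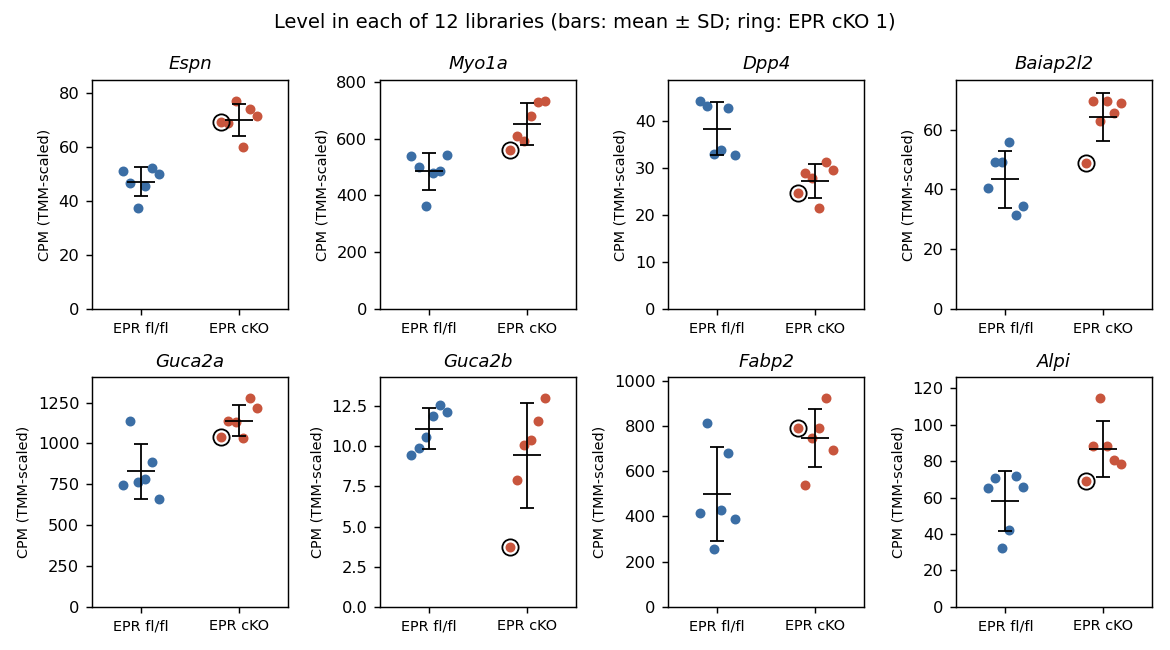
CPM of 8 genes in each EPR fl/fl (blue) and EPR cKO (red) library, with mean ± SD (n = 6) and a ring around EPR cKO 1. Espn and Myo1a are separated upwards and Dpp4 downwards, whereas EPR cKO 1 lies apart from the rest of its group for Baiap2l2 (48.7 CPM) and Guca2b (3.74 CPM).

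Genes of lipid and retinoid handling also pointed in different directions, with 3 of 5 tested values above 0 and none past the test. Fabp2, which carries fatty acids in the cytoplasm of enterocytes, was at 255 to 814 CPM in EPR fl/fl (median 422) and 540 to 923 CPM in EPR cKO (median 768). The controls spread over nearly the whole range, and EPR cKO 5 alone exceeded all of them (log2 fold change 0.59, SE 0.24, adjusted p = 0.220). Rbp2, for the retinol-binding protein of enterocytes, was at 6.17 to 12.98 CPM in EPR fl/fl (median 8.63) and 9.32 to 17.7 CPM in EPR cKO (median 14.2). Its groups overlapped, with 4 EPR cKO libraries above every control (0.61, SE 0.21, adjusted p = 0.156). Dgat1 and Dgat2 encode the enzymes that complete triglyceride synthesis, and were at 0.11 and −0.33 (adjusted p = 0.608 and 0.503). Dgat2 was at 91.6 to 251 CPM in EPR fl/fl (median 134) and 79.5 to 174 CPM in EPR cKO (median 113). It was highest in EPR fl/fl 1 (251 CPM), EPR fl/fl 5 (177 CPM) and EPR cKO 1 (174 CPM), and the summed level of 5 adipocyte genes was highest in the same libraries, at 1225, 1111 and 850 CPM against 25.7 to 729 CPM in the others. The part of attached fat in the Dgat2 values was not tested. Mttp, for the transfer protein that loads lipid onto lipoproteins, was at 2.57 to 7.18 CPM in EPR fl/fl (median 2.96) and 2.503 to 3.52 CPM in EPR cKO (median 3.00). Its value of −0.31 (SE 0.25, adjusted p = 0.519) was −0.037 without EPR fl/fl 1, the library with the highest level.

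Of the transporters and surface proteins, Emp1 was above 0 and the other 3 below. Slc6a14, for an amino acid transporter of the colon, was at 859 to 1164 CPM in EPR fl/fl (median 1068) and 768 to 985 CPM in EPR cKO (median 866). The groups overlapped, with 3 EPR cKO libraries below every control (log2 fold change −0.26, SE 0.09, adjusted p = 0.162). Slc51a and Slc51b encode the 2 chains of the basolateral bile acid exporter, and had values of −0.17 and −0.16 (adjusted p = 0.564 and 0.606). Antisense exons of Pcyt1a and Rasl12 covered 21.7% and 12.8% of their exon length. Emp1 was at 757 to 2233 CPM in EPR fl/fl (median 1610) and 1894 to 3095 CPM in EPR cKO (median 2229). EPR fl/fl 3 was the lowest library and EPR cKO 5 the highest, and the groups overlapped (0.61, SE 0.22, adjusted p = 0.177).

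The guanylin genes differed from each other. Guanylin (Guca2a) and uroguanylin (Guca2b) bind the same receptor on the apical membrane, and their genes lie 17136 bases apart on chromosome 4, on opposite strands. Guca2a was at 659 to 1139 CPM in EPR fl/fl (median 773) and 1034 to 1277 CPM in EPR cKO (median 1134). A single control, EPR fl/fl 2, reached into the range of EPR cKO (log2 fold change 0.46, SE 0.12, adjusted p = 0.0709). Guca2a passed 0.05 in the DESeq2 Wald test (0.0102), in limma-voom (0.0422), without EPR fl/fl 2 (0.00926) and without EPR cKO 1 (0.0220), and was at 0.37 with the score (adjusted p = 0.183). Guca2b was at 9.45 to 12.5 CPM in EPR fl/fl (median 11.2). In EPR cKO it was at 3.74 CPM in EPR cKO 1 and 7.93 to 12.99 CPM in the others. The groups overlapped, and the value was −0.23 (SE 0.23, adjusted p = 0.607) without the score and −0.80 (SE 0.16, adjusted p = 0.0154) with it. With the mean of the epithelial genes as covariate it was −0.84 (adjusted p = 0.0376). With the score and without EPR cKO 1 it was −0.46 (adjusted p = 0.697), and was no longer called. EPR cKO 1 was the library with both the lowest score and the lowest Guca2b level. Genes of guanylin signalling gave low values, 0.03 for the receptor gene Gucy2c and 0.01 for the chloride channel gene Cftr.

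With the epithelial share score as covariate, the 39 genes had 1 call higher (Espn) and 2 lower (Dpp4 and Guca2b), where 0.533% and 1.63% of all tested genes were called. The median log2 fold change was 0.16 against 0.01 for all tested genes, 31 values were above 0, and 24 of the 39 lay closer to 0 than without the score. At an unadjusted p under 0.05, 10 were higher and 3 lower. The matching counts over all tested genes were not taken for this fit, so no excess can be read from them. The sign of Fscn1, Cobl and Anpep changed, and each of these had an SE larger than its value in the fit with the score.

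**Figure D4:**
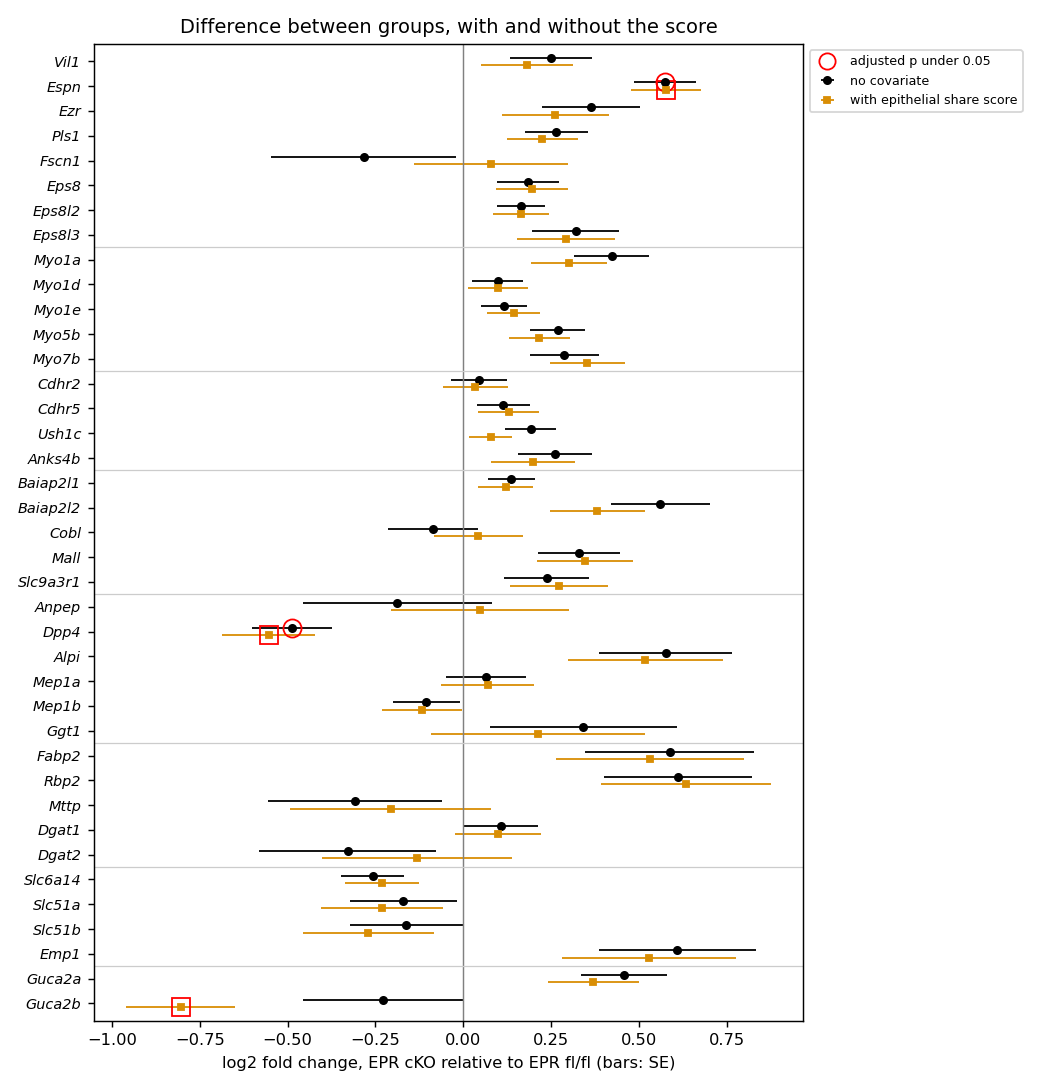
Log2 fold change of EPR cKO relative to EPR fl/fl for the 39 tested genes, with bars for the SE, without a covariate (black) and with the epithelial share score (orange), and red outlines where the adjusted p was under 0.05. Espn (0.57 and 0.58) and Dpp4 (−0.49 and −0.55) hardly moved with the score, whereas Guca2b went from −0.23 to −0.80.

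A further 41 genes of the brush border, of nutrient absorption and of guanylin signalling, of which 34 were tested, had 1 call higher and 2 lower, beside 0.884% and 1.57% of all tested genes, and a median log2 fold change of −0.05. Calml4, for a calmodulin-like light chain of the tip link complex, went from 73.0 ± 9.77 to 97.3 ± 11.1 CPM (log2 fold change 0.41, SE 0.10, adjusted p = 0.0490). That call held in 2 of 9 other settings and in 2 of the 12 fits without 1 library. Like Dpp4, the genes that fell encode surface peptidases. Naaladl1 went from 55.8 ± 22.5 to 23.7 ± 5.82 CPM (−1.24, SE 0.26, adjusted p = 0.0234), and Xpnpep2, for aminopeptidase P, from 6.18 ± 0.80 to 3.74 ± 0.70 CPM (−0.72, SE 0.15, adjusted p = 0.0244). The groups of both genes did not overlap, as for 1.47% of all tested genes with EPR cKO below. For Naaladl1 the highest EPR cKO library (30.1 CPM) lay close to the lowest control (31.1 CPM). The calls of the 2 genes held in 7 and 5 of 9 other settings and in 7 and 5 of the 12 fits without 1 library. None of these 3 genes passed with the score, and Fabp6, for the bile acid binding protein of the ileum, was then called lower (−2.74, adjusted p = 0.0445).

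The starts of the brush border genes were read from the RefSeq promoter table (build GRCm38.p6), which listed 35 of the 44 genes. Eps8, Myo1d, Myo5b, Myo7b, Baiap2l2, Mep1b, Cdh16, Dgat1 and Dgat2 had no entry. The 250 bases before the start are shown for Espn (chr4:152152390-152152639), Dpp4 (chr2:62412232-62412481) and Alpi (chr1:87101607-87101856), all on the minus strand, since the first 2 were called and both motifs searched were found in Alpi. Alpi itself did not pass the test with all 12 libraries. The windows of Guca2a, and of Guca2b, which was called with the score, held neither motif and are not shown. Capitals mark CAAAGTCCA, a site form of HNF4, and TTTATNG, a site form of CDX factors, on either strand.
Espn: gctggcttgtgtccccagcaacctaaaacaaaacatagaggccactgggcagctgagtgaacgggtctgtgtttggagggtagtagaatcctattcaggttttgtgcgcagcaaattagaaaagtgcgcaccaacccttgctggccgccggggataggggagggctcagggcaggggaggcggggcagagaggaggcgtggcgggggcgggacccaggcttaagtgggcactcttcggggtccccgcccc
Dpp4: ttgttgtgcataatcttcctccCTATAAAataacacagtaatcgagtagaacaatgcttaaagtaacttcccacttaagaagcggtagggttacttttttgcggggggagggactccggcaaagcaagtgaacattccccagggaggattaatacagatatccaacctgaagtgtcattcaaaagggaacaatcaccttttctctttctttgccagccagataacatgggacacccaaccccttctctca
Alpi: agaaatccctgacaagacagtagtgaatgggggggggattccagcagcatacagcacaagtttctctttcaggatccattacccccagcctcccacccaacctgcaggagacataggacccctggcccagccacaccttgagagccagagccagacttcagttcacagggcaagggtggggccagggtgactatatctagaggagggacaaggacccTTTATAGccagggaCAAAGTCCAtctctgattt
In Alpi, CAAAGTCCA began 19 and TTTATNG 33 bases before the start, and in Dpp4 TTTATNG lay on the opposite strand, and the marked letters began 228 bases before the start. Another of the 3 windows listed for Espn, not shown, also held TTTATNG. On its opposite strand TTTATNG can hold the letters TATAAA of a TATA box, and does so in Alpi and Dpp4. In Dpp4 these letters read in the direction of the gene, whereas in Alpi they lie on the opposite strand. A TATA box also lies close to the start, as the match in Alpi does and that in Dpp4 does not. CAAAGTCCA was found in 1 of 43 windows of the listed genes (2.33%) and in 0.384% of 32851 windows of all genes, and TTTATNG in 9 of 43 (20.9%) and 9.81%. A match describes the letters of the window and is not a binding site measured here.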

How the data were processed

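Total RNA of the proximal colon was sequenced from 6 EPR fl/fl and 6 EPR cKO mice. The authors depleted ribosomal RNA, made stranded paired-end libraries, trimmed reads with Trimmomatic, mapped them to mm10 (GRCm38) with STAR 2.5.3a and counted them per gene with featureCounts on an Ensembl annotation, and the values they deposited are raw counts. The strand setting and the handling of reads with several alignments are not stated in the sources used here. Sample labels gave the groups, and all 12 libraries were used.

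Testing was limited to the 15952 genes that reached 1 CPM in 4 or more libraries, the filter of the study. Differences were tested in R 4.3.3 with edgeR 4.0.16 (TMM, glmQLFit and glmQLFTest, Benjamini-Hochberg adjustment over all tested genes), without a covariate and with the epithelial share score (prior count 2). An SE is the absolute log2 fold change divided by the square root of F. CPM are TMM-scaled, as mean ± SD over 6 libraries. Alternatives used filterByExpr or no filter, total counts or DESeq2 size factors, limma-voom (limma 3.58.1), the Wald test of DESeq2 1.42.0, the mean of the epithelial genes as covariate, a replicate block, and each library left out in turn.

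Genes and lists were chosen with earlier results of these data known. Values per library, or their ranges within each group, are given for a chosen set of genes. These are genes called with or without the score, the highest gene per kb of each role, the guanylins, and the 5 highest and 5 lowest fold changes. Baiap2l2 and Anpep were added after their values were seen. Promoter windows and motifs were read with Python 3.11.15.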

Additional observations from a re-analysis of the deposited data

Results flagged for a closer look

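In 82 sets of 6 libraries, 6 held a library whose gap to its nearest neighbour was large against the range of its group, where chance gives about 1 in 20 sets, or 4.1. Pls1 was at 522 CPM in EPR cKO 5 and 414 to 452 CPM in the rest of EPR cKO. Myo1a was at 364 CPM in EPR fl/fl 3 and 480 to 542 CPM in the other controls. Baiap2l1 was at 121 CPM in EPR fl/fl 2 and 103 to 107 CPM in the other controls. Baiap2l2 was at 48.7 CPM in EPR cKO 1 and 62.9 to 69.7 CPM in the rest of EPR cKO. Mttp was at 7.18 CPM in EPR fl/fl 1 and 2.57 to 4.14 CPM in the other controls. EPR itself (Smim31) was at 0.424 CPM in EPR cKO 2 and 0 to 0.134 CPM in the rest of EPR cKO.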

How the results depend on the processing

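Of the 39 brush border genes, 1 was called higher and 1 lower. The count of higher genes was 5 in the DESeq2 Wald test, 4 in limma-voom, 2 with the replicate block (Espn and Rbp2) and 0 with the score and EPR cKO 1 left out, an alternative chosen after seeing the data. It ran from 1 to 7 when 1 library was left out, with 7 without EPR cKO 1. The count of lower genes was 2 with the score and 0 without the low-count filter, with the replicate block and with the score and EPR cKO 1 left out, and 0 to 1 when 1 library was left out. Over all genes, 1.57% were called lower in the main fit, 1.63% with the score and 2.97% in the DESeq2 Wald test. The shares were 0.662% without the filter, 1.12% with the block, and 0.0758% with the score and EPR cKO 1 left out. Same-numbered libraries correlated at −0.24 to 0.34 over 6 pairs, and 2 of 6 correlated best with their own number, so that the numbers were not used to pair samples. Of the 34 other brush border and absorption genes, higher calls went from 1 to 0 with DESeq2 size factors, total counts, no filter, filterByExpr, the score, the epithelium list mean, the replicate block, and the score with EPR cKO 1 left out, and to 2 in the DESeq2 Wald test. Lower calls went from 2 to 4 in the DESeq2 Wald test, to 1 with the score, the epithelium list mean and the replicate block, and to 0 with the score and EPR cKO 1 left out. With 1 library left out these counts ran from 0 to 4 and from 0 to 6. Both maxima came without EPR cKO 1, where 7.44% of all genes were called higher and 14.4% lower. The difference in the score ran from 0.85 to 1.55.

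Log2 fold changes changed sign with the score for Fscn1 (0.078), Cobl (0.043) and Anpep (0.048), and with the epithelium list mean for Cobl (0.13) and Anpep (0.092). With the score and EPR cKO 1 left out they did so for Fscn1 (0.65), Eps8l3 (−0.32), Anks4b (−0.15), Mep1b (0.15), Fabp2 (−0.052), Dgat1 (−0.15), Slc6a14 (0.060) and Emp1 (−0.036). Mep1a ran from −0.015 to 0.12 when 1 library was left out. The cause of these changes was not tested. No other sign changed among the 39 genes in the alternatives run. In the main fit the SE of a brush border gene was 0.07 to 0.27. Differences of that size lie within the error of 6 libraries per group. Some of the sign changes were larger than the SE of the gene in the main fit. With the score and EPR cKO 1 left out, Eps8l3 went from 0.32 (SE 0.12) to −0.32, and Emp1 from 0.61 (SE 0.22) to −0.036.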
